A study of Homo sapiens with 6 samples.

Results

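The mRNAs of the kinesin family were examined in immunoprecipitates of the poly(A)-binding proteins PABPC1 and PABPC4 from HepG2, a human hepatocellular carcinoma cell line. Members were taken by gene symbol: KIF genes of the numbered series, KIFC1, KIFC2, KIFC3, the kinesin-associated protein gene KIFAP3, and the light chain genes KLC1, KLC2 and KLC4. In all, 46 of 58302 listed genes were members, and 39 of them had at least 1 sequenced read. Members without a read in any library were KIF1A, KIF2B, KIF6, KIF19, KIF25, KIF26A and KIF26B, 7 genes.

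Kinesins are motor proteins that use ATP to move along microtubules or to change the length of microtubule ends. Most carry a motor domain joined to a coiled-coil stalk, through which heavy chains pair, and a tail that binds cargo. In dividing cells one set builds the mitotic spindle and completes cytokinesis, and in all cells other sets carry vesicles, mitochondria and ciliary components. PABPC1 binds the poly(A) tails of cytoplasmic mRNAs and is abundant, while its paralogue PABPC4 is usually scarcer.

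RNA immunoprecipitation followed by sequencing (RIP-seq) gave 2 libraries with an antibody to PABPC1 from HepG2 cells labelled as overexpressing PABPC1, and 2 with an antibody to PABPC4 from cells labelled as overexpressing PABPC4. The control was rabbit IgG, with 2 libraries, 1 from each of these overexpressing populations, and the comparisons of both proteins used these same pooled IgG libraries. Cells with unaltered PABPC1 and PABPC4 levels were not analysed here, and antibody and overexpressed protein always changed together, so their effects cannot be told apart. The deposited values are folds and p-values, from which whole reads per library were recovered. It is not known which recovered library is which replicate, so libraries are called A and B within each antibody. Since no label says that replicate libraries are from separate cultures, their spread may be technical, and p-values cover no other spread.

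The IgG libraries were the shallowest, with totals of 133030 and 94235 reads, beside 289217 and 277552 with PABPC1 and 850190 and 841327 with PABPC4. Nuclear-encoded genes took 53.0% and 58.5% of reads with PABPC1, 78.1% and 76.7% with PABPC4, and 38.2% and 40.1% with IgG. Levels are given as RPM, reads divided by the library total and scaled to 1000000. All 11 hepatocyte markers had reads, and they summed to 4247 and 4245 RPM with IgG, 6894 and 7725 with PABPC1, and 9412 and 10054 with PABPC4. Markers of other cells had reads too, so having reads does not show liver identity. The sums of these other markers moved the opposite way to the kinesins. The 10 blood markers, haemoglobin genes among them, summed to 3683 and 3767 RPM with IgG, 1352 and 1466 with PABPC1, and 757 and 603 with PABPC4. The 6 fibroblast markers summed to 218 and 180 RPM with IgG, 51.9 and 43.2 with PABPC1, and 24.7 and 14.3 with PABPC4. No gene of either list was at 0 in all libraries, and the part of these transcripts in the kinesin results was not tested.

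Summed over all members, kinesin mRNA was lowest with IgG and highest with PABPC4. The family took 1255 and 1231 RPM of the library total with IgG, 2254 and 2252 with PABPC1, and 4029 and 3730 with PABPC4. Scaled to nuclear-encoded reads in place of library totals, the order was the same and the gaps were smaller, at 3285 and 3068 with IgG, 4252 and 3846 with PABPC1, and 5159 and 4863 with PABPC4. Libraries of the same antibody lay closer to each other than to any library of another antibody on both scales. Leaving out KIF5B kept that order, with 2715 and 2486, 3307 and 2972, and 3888 and 3602 on the scale of nuclear-encoded reads.

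**Figure D1:**
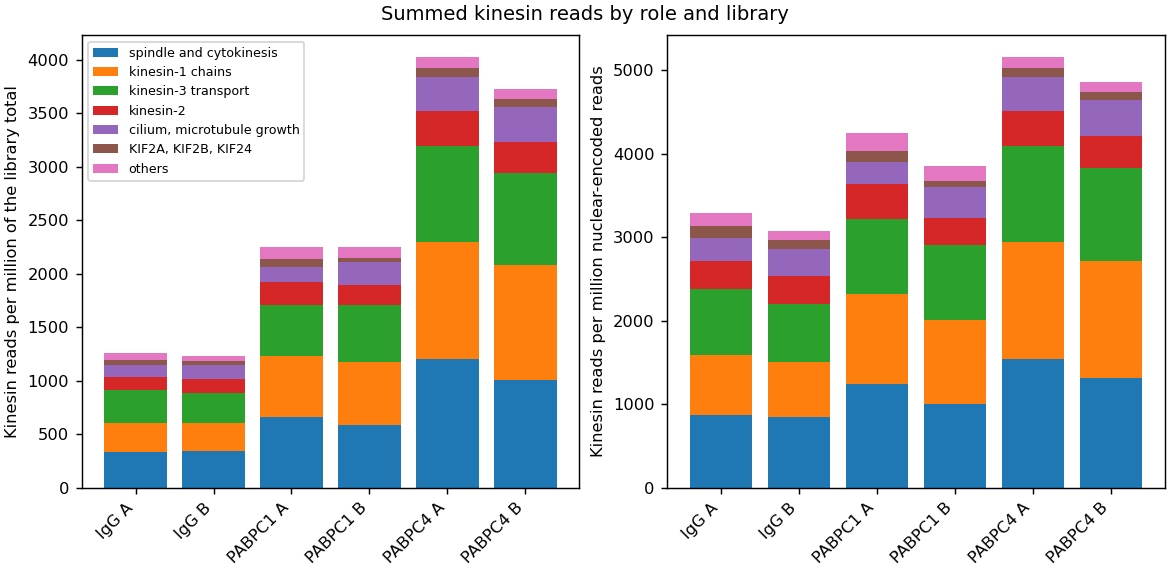
Summed kinesin reads by functional role (colours) in each of the 6 libraries, in RPM of the library total (left) and in RPM of nuclear-encoded reads (right). The PABPC4 bars are the tallest in both panels, and the step from IgG (1255 and 1231) to PABPC4 (4029 and 3730) on the left shrinks to 3285 and 3068 against 5159 and 4863 on the right.

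The reads were concentrated in few members. KIF5B held 1996 of the 8130 kinesin reads (24.6%), and the 10 members with most reads held 69.9%. Per kilobase of transcript, KIF5B was also the highest, with a mean of 167 RPM per kilobase (RPKM) with PABPC4, 86.2 with PABPC1 and 38.4 with IgG. With PABPC4 the next levels on this length-adjusted scale were 39.1 RPKM for KIFC1, 35.9 for KIF20B, 33.7 for KIF1C and 30.3 for KIF3B.

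Against IgG, 12 of the 39 members with a p-value were higher with PABPC4 and 0 were lower at an adjusted p under 0.05 in the authors' deposited table, where 5.54% of all tested genes were higher and 0.9% lower. The 12 were KIF5B, 4 carriers of the kinesin-3 group, 5 kinesins of the spindle and of cytokinesis, KIF3B and KIF21A. With PABPC1 the authors' deposited table called 1 of 39 members higher, KIF5B, and 0 lower, against 1.34% and 0.194% of all tested genes. The deposited p-value comes from a chi-square test on reads summed over libraries, so it covers counting error only. The fold stood above 1 in 36 of 39 members for PABPC4 and in 32 of 39 for PABPC1 in the authors' deposited tables, for some members on very few reads. On library totals the median of all genes with at least 20 reads also lay above IgG, at log2 0.94 with PABPC4 and 0.57 with PABPC1. With limma, which uses the spread between libraries and centres on the median gene, KIF5B was the 1 member of 30 called higher with PABPC4 (1.73% of all genes tested higher, 2.22% lower; 8 members had an unadjusted p under 0.05). With PABPC1 limma called 0 of 30 members (0.351% of all genes higher, 0.489% lower; 4 members had an unadjusted p under 0.05). On this centred scale 20 of the 30 members lay above 0 with PABPC4 and 17 with PABPC1.

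How many members were called followed their read depth. With PABPC4, 20 members had at least 100 reads summed over RIP and IgG, and 12 of these were called in the authors' deposited table, where 38.4% of all genes at that depth were called higher. Of the 19 members under 100 reads with a p-value, 0 were called. With PABPC1, 2 members reached 100 reads and 1 was called, against 28.6% of all genes at that depth in the authors' deposited table. Among genes with at least 20 reads, the median log2 ratio of PABPC4 over IgG was 1.40 for 31 members and 0.94 for all 8792 genes, and that of PABPC1 over IgG was 0.71 for 22 members and 0.57 for 4509 genes. Scaling by nuclear-encoded reads lowered the PABPC4 medians to 0.41 and -0.05, and the PABPC1 medians to 0.19 and 0.05. On that scale 1 member was called higher with PABPC4, KIF5B, and 0 with PABPC1, while calls over all genes went from 1188 higher and 193 lower to 109 and 457 with PABPC4, and from 235 and 34 to 24 and 83 with PABPC1. The folds of the 12 members called with PABPC4 then ran from 1.12 for KIF3B to 5.11 for KIF20A. Calls over all genes with PABPC4 also fell when either IgG library was left out. Without IgG library A, 2 members were called with PABPC4 (KIF5B and KIF21A), and without IgG library B 6 (these 2, KIF1B, KIF1C, KIF16B and KIF20B).

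**Figure D2:**
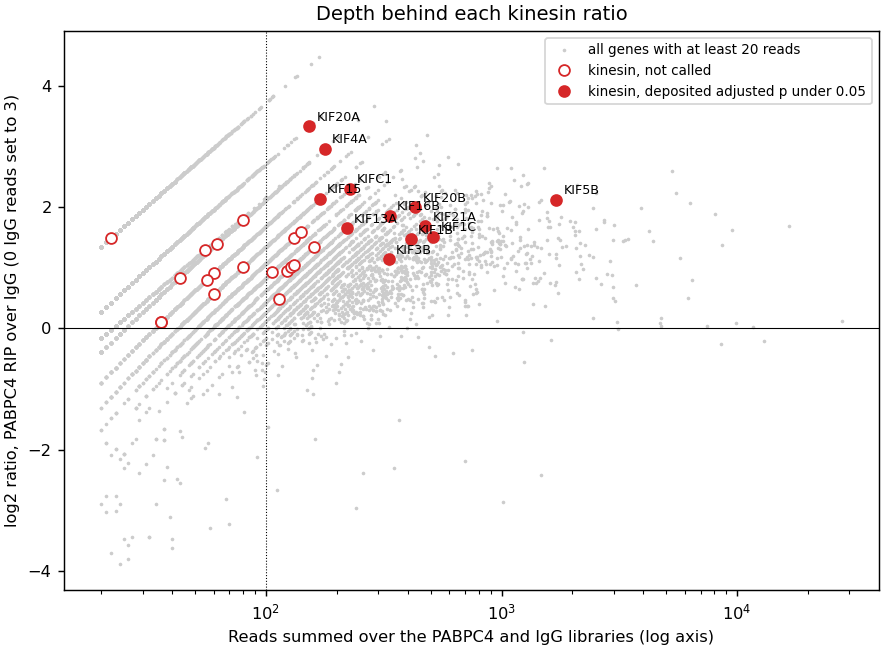
Log2 ratio of PABPC4 RIP over IgG against the reads summed over those libraries (log axis), for all genes with at least 20 reads (grey) and kinesins (red; filled where the authors' deposited adjusted p was under 0.05). A gene with no IgG read is drawn as if it had 3; all 12 filled points lie to the right of the dotted line at 100 reads.

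The kinesin-1 group holds the conventional transport motor, made of heavy chains (KIF5A, KIF5B, KIF5C) and light chains (KLC1, KLC2, KLC4) that bind cargo. KIF5B, the heavy chain made in most tissues, lies at chr10:32009015-32056425 on GRCh38.p14. It had 218 and 233 RPM with IgG, 501 and 512 with PABPC1, and 993 and 968 with PABPC4. On library totals the 3 antibodies gave 3 separate levels with no overlap between libraries. How many of all genes do so was not counted, here or for the members below. The authors' deposited tables listed KIF5B at 2.24-fold with PABPC1 (adjusted p = 1.7e-05) and 4.34-fold with PABPC4 (adjusted p = 7.8e-27). From the summed reads of 287, 1658 and 51 with PABPC1, PABPC4 and IgG, the exact 95% counting intervals were 1.67 to 3.10 and 3.31 to 5.89. With nuclear-encoded totals the PABPC1 ratio fell to 1.58 and was no longer called (adjusted p = 0.268), while the PABPC4 ratio of 2.20 was still called. Leaving out IgG library A also ended the PABPC1 call (2.17-fold, adjusted p = 0.0924). In limma, KIF5B was log2 1.15 higher with PABPC4 than with IgG (SE 0.21, adjusted p = 0.000333), and log2 0.68 higher with PABPC1, which missed the threshold (SE 0.23, adjusted p = 0.176).

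KIF5A, the heavy chain best known from neurons, was the member with the largest listed fold for PABPC4 among those with at least 20 RIP reads. It had 0 reads in both IgG libraries, 27.7 and 21.6 RPM with PABPC1, and 40.0 and 24.96 with PABPC4. Set against a floor of 3 reads over the IgG group, the ratio was 1.87 with PABPC1 and 2.46 with PABPC4. From the counts themselves, the exact 95% lower limits were 1.33 and 1.94. The authors' deposited tables called neither (adjusted p = 0.629 and 0.135), and their listed folds of 787 and 1037 follow from a small constant added to an IgG level of 0. KIF5C, a further heavy chain, had 0 PABPC1 reads, 6 PABPC4 reads and 1 IgG read, known only as sums. The light chains had few reads, with 11, 52 and 4 for KLC1, 10, 40 and 3 for KLC2, and 7, 32 and 4 for KLC4 with PABPC1, PABPC4 and IgG, and none was called.

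The kinesin-3 group carries vesicles and endosomes over long distances, and 4 of its 6 members were called higher with PABPC4 in the authors' deposited table, beside 5.54% of all tested genes and 38.4% of those with at least 100 reads. KIF1C, which serves transport between the Golgi and the endoplasmic reticulum among other routes, had 97.7 and 106 RPM with IgG, 194 and 227 with PABPC1, and 301 and 277 with PABPC4. On library totals its 3 antibody groups did not overlap, while in limma KIF1C was at log2 -0.02 with PABPC4 against PABPC1. The authors' deposited tables listed KIF1C at 2.06-fold with PABPC1 (adjusted p = 0.0813) and 2.83-fold with PABPC4 (adjusted p = 1.96e-05). KIF1B, a carrier of mitochondria and synaptic vesicle precursors, had 90.2 and 74.3 RPM with IgG, 121 and 104 with PABPC1, and 236 and 227 with PABPC4. On library totals the PABPC1 libraries of KIF1B stood just above IgG and well below PABPC4. The authors' deposited tables listed KIF1B at 1.37-fold (adjusted p = 1) and 2.81-fold (adjusted p = 0.000321).

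KIF16B, which moves early endosomes, had 37.6 and 74.3 RPM with IgG, 62.2 and 97.3 with PABPC1, and 199 and 184 with PABPC4. The PABPC1 and IgG libraries overlapped, and both PABPC4 libraries lay above all others. The authors' deposited tables listed KIF16B at 1.42-fold with PABPC1 (adjusted p = 1) and 3.42-fold with PABPC4 (adjusted p = 0.000169). KIF13A, a motor of endosomal recycling, had 60.1 and 10.6 RPM with IgG, 62.2 and 64.9 with PABPC1, and 128 and 121 with PABPC4. The IgG libraries lay far apart, with 8 and 1 reads, and the higher lay just below the PABPC1 libraries. The authors' deposited table listed KIF13A at 3.52-fold with PABPC4 (adjusted p = 0.0113), and the recomputed fold was 11.8 without IgG library A and 2.07 without IgG library B, neither of them called. KIF13B, the fifth member with reads, had 20 PABPC1 reads, 59 PABPC4 reads and 3 IgG reads and was not called.

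The kinesins of the spindle and of cytokinesis were the largest role group, with 13 members, all with reads. Of these, 5 were called higher with PABPC4 in the authors' deposited table and 0 with PABPC1. With PABPC4, 5.54% of all tested genes and 38.4% of those with at least 100 reads were called higher. As a group they took 331 and 340 RPM with IgG, 657 and 587 with PABPC1, and 1206 and 1008 with PABPC4. The genes of this group are switched on together ahead of mitosis, and most of their promoter windows hold letters that the symbol rule did not use. Windows from 250 bases before to 50 bases after the RefSeq start (GRCh38.p14) were found for 36 of the 46 members. The letters TTTGAA, one form of the cell-cycle homology element, stood on either strand in 10 of 13 spindle kinesins, 1 of 23 other members (KIF5B) and 18.2% of all genes with a window. With TTTAAA counted as well, the counts were 12 of 13, 2 of 23 and 27.9%. CCAAT stood in 11 of 13, 7 of 23 and 39.7%.

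RIP-seq does not measure promoters. The 3 spindle kinesins below were picked as called members whose letters lie within the 100 bases before the start, and KIF5B as the member with most reads. In KIF20B and KIFC1, which were called as well, the letters follow the start. Spindle kinesins that were not called can also hold the letters in this stretch, as at base -28 in KIF11 and -55 in KIF23. Each sequence shown runs 5′ to 3′ and holds the 100 bases before the RefSeq start. KIF20A is at chr5:138179012-138179111 (plus strand), KIF4A at chrX:70290004-70290103 (plus), KIF15 at chr3:44761694-44761793 (plus) and KIF5B at chr10:32056426-32056525 (minus). Capitals mark TTTGAA or TTTAAA, or TTCAAA where TTTGAA lies on the other strand. KIF5B has no such letters in this stretch, and its TTTGAA lies at base -140.
KIF20A: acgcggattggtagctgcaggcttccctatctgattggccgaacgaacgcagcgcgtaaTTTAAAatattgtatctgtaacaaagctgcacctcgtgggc
KIF4A: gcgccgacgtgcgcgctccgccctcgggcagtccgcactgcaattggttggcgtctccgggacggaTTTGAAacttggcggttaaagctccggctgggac
KIF15: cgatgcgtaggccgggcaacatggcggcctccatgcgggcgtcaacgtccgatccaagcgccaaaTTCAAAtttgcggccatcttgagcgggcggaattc
KIF5B: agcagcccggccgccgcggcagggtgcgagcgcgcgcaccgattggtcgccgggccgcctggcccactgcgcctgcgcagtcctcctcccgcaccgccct

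Of the called spindle kinesins, KIF20A and KIF4A had the largest folds and the fewest IgG reads. KIF20A, a motor of the central spindle needed for cytokinesis, had 7.52 and 10.6 RPM with IgG (1 read in each library), 44.9 and 36.0 with PABPC1, and 106 and 72.5 with PABPC4. On library totals the groups did not overlap. The authors' deposited tables listed KIF20A at 4.46-fold with PABPC1 (adjusted p = 0.630) and 9.82-fold with PABPC4 (adjusted p = 0.00258), and the exact counting interval of the PABPC4 ratio ran from 2.76 to 84.5. KIF4A, a chromosome-bound motor that also limits microtubule length in the central spindle, had 15.0 and 10.6 RPM with IgG, 55.3 and 72.1 with PABPC1, and 116 and 90.3 with PABPC4. Again the groups did not overlap on this scale. The authors' deposited tables listed KIF4A, the member with the largest PABPC1 fold among those with at least 20 RIP reads, at 4.96-fold (adjusted p = 0.237) and 8.05-fold with PABPC4 (adjusted p = 0.00141). The PABPC4 counting interval for KIF4A was 2.64 to 38.4. KIF4B is a close copy of KIF4A with 1, 2 and 1 reads for PABPC1, PABPC4 and IgG, and how reads shared by the copies were assigned was not given in the sources used here.

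KIFC1, a minus-end-directed motor that focuses spindle poles, had 30.1 and 21.2 RPM with IgG, 107 and 97.3 with PABPC1, and 131 and 131 with PABPC4. Both RIPs lay well above IgG and close to each other. The authors' deposited tables listed KIFC1 at 3.98-fold with PABPC1 (adjusted p = 0.0648) and 5.09-fold with PABPC4 (adjusted p = 0.000937). KIF20B, which acts late in cytokinesis, had 52.6 and 74.3 RPM with IgG, 138 and 97.3 with PABPC1, and 274 and 218 with PABPC4. Its groups did not overlap on library totals, and the authors' deposited tables listed 1.86-fold (adjusted p = 0.605) and 3.87-fold (adjusted p = 3.44e-06). KIF15, a plus-end motor that can hold spindle poles apart, had 15.0 and 31.8 RPM with IgG, 55.3 and 68.5 with PABPC1, and 106 and 88.0 with PABPC4. The authors' deposited tables listed KIF15 at 2.64-fold with PABPC1 (adjusted p = 0.629) and 4.13-fold with PABPC4 (adjusted p = 0.0113). The KIF15 fold with PABPC4 was 3.05 without IgG library A and 6.45 without IgG library B, neither of them called.

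**Figure D3:**
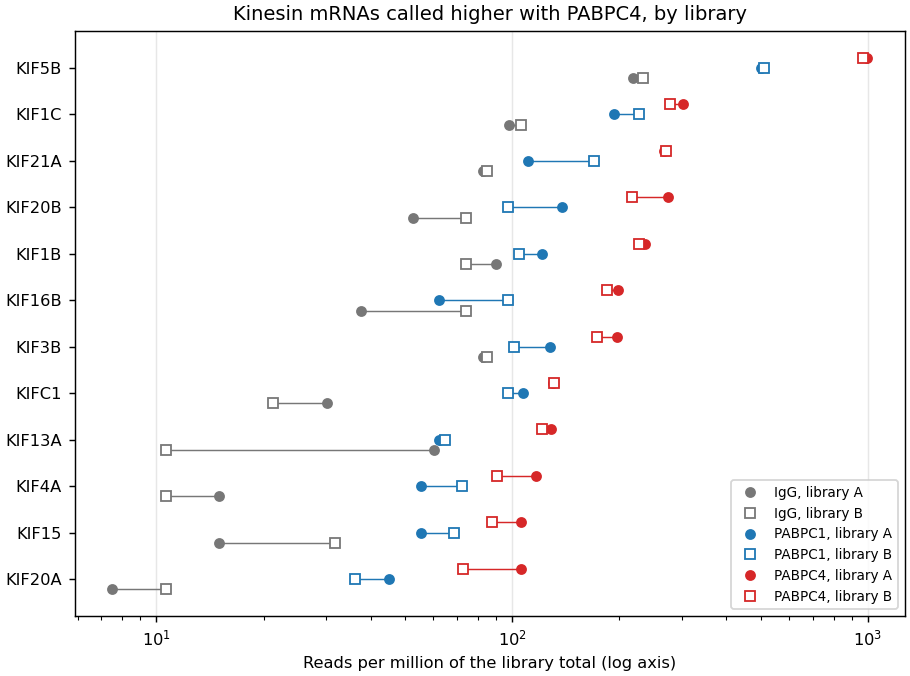
RPM of the library total (log axis) for the 12 kinesin mRNAs called higher with PABPC4, by library; circles are library A, open squares library B, and a line joins the pair. On this scale both PABPC4 libraries lie to the right of all 4 other libraries for each gene. The median of all genes tested was also log2 0.45 higher with PABPC4 than with PABPC1 on library totals. How many of all genes show this order was not counted. The genes were picked as higher with PABPC4 than with IgG, so that part of the order was set by the choice. The IgG pair is widest for KIF13A (60.1 and 10.6).

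None of the 8 remaining spindle members was called. Leaving out KIF4B, their PABPC4 folds in the authors' deposited table ran from 1.60 for KIF18A, which damps chromosome movements on the spindle, to 3.54 for KIF23, a subunit of centralspindlin. KIF11, the motor that pushes spindle poles apart, had 24, 152 and 8 reads for PABPC1, PABPC4 and IgG. KIF22, a chromosome-bound motor, had 16, 126 and 6 reads, and KIF2C, which takes microtubules apart at centromeres, had 27, 120 and 8. KIF14 and KIF18B had 27, 115 and 8 reads and 16, 99 and 7 reads. The PABPC1 folds of these 7 members ran from 0.609 to 2.20 in the authors' deposited table.

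The kinesin-2 group drives transport inside cilia, and KIF3B, a heavy chain of its heterotrimer, was the 1 member of 5 called higher with PABPC4. Of all tested genes 5.54% were called higher, and of those with at least 100 reads 38.4%. KIF3B had 82.7 and 84.9 RPM with IgG, 128 and 101 with PABPC1, and 196 and 174 with PABPC4. On library totals the PABPC4 libraries were highest and the groups did not overlap. The authors' deposited tables listed KIF3B at 1.36-fold with PABPC1 (adjusted p = 1) and 2.21-fold with PABPC4 (adjusted p = 0.0150). The KIF3B fold with PABPC4 was 1.12 on nuclear-encoded totals and 1.09 in limma, neither of them called. Its partners stood far lower in reads, with 20, 75 and 5 for KIF3A and 1, 2 and 0 for the accessory subunit KIFAP3 with PABPC1, PABPC4 and IgG. KIF3C, an alternative heavy chain, had 29, 135 and 6 reads, and KIF17, a motor of cilia and dendrites, had 1, 3 and 0. Among the 7 members tied to cilia or to the control of microtubule growth, 1 was called higher with PABPC4, beside the same shares over all genes. This was KIF21A, which restrains microtubule growth at the cell cortex. It had 82.7 and 84.9 RPM with IgG, 111 and 169 with PABPC1, and 267 and 271 with PABPC4. The groups did not overlap for KIF21A either on library totals, and the authors' deposited tables listed 1.67-fold (adjusted p = 0.775) and 3.21-fold (adjusted p = 1.06e-05). The 4 others of this role with reads were sparse, with 56 PABPC4 reads for KIF27, 17 for KIF7, a regulator of hedgehog signalling in cilia, 15 for KIF21B and 8 for KIF9.

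KIF2A, which takes microtubule ends apart, had 45.1 and 42.4 RPM with IgG, 65.7 and 32.4 with PABPC1, and 64.7 and 58.2 with PABPC4. On library totals the PABPC1 libraries lay on either side of IgG, and both PABPC4 libraries lay above it. On the centred scale of limma KIF2A lay below IgG, at log2 -0.49 with PABPC1 and -0.59 with PABPC4, neither of them called. KIF2A had the smallest PABPC1 fold of members with at least 20 RIP reads, 1.12 in the authors' deposited table, beside 1.40 with PABPC4 (both adjusted p = 1). The counting interval of its PABPC4 ratio was 0.730 to 3.0, which includes 1 and the ratios of several called members. KIF24, which acts on centriolar microtubules, had 21 PABPC4 reads and was not called. Among members with at least 20 RIP reads KIFC2 had the smallest PABPC4 fold, 1.04 in the authors' deposited table (adjusted p = 1), from 32 PABPC4 and 4 IgG reads, 22.3 and 15.5 against 15.0 and 21.2 RPM. In limma KIFC2 lay at log2 -1.14 with PABPC4 against IgG and was not called. None of the 6 members outside the named roles was called, and KIFC3, a minus-end motor of cell junctions, had the most reads among them (40, 123 and 8).

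**Figure D4:**
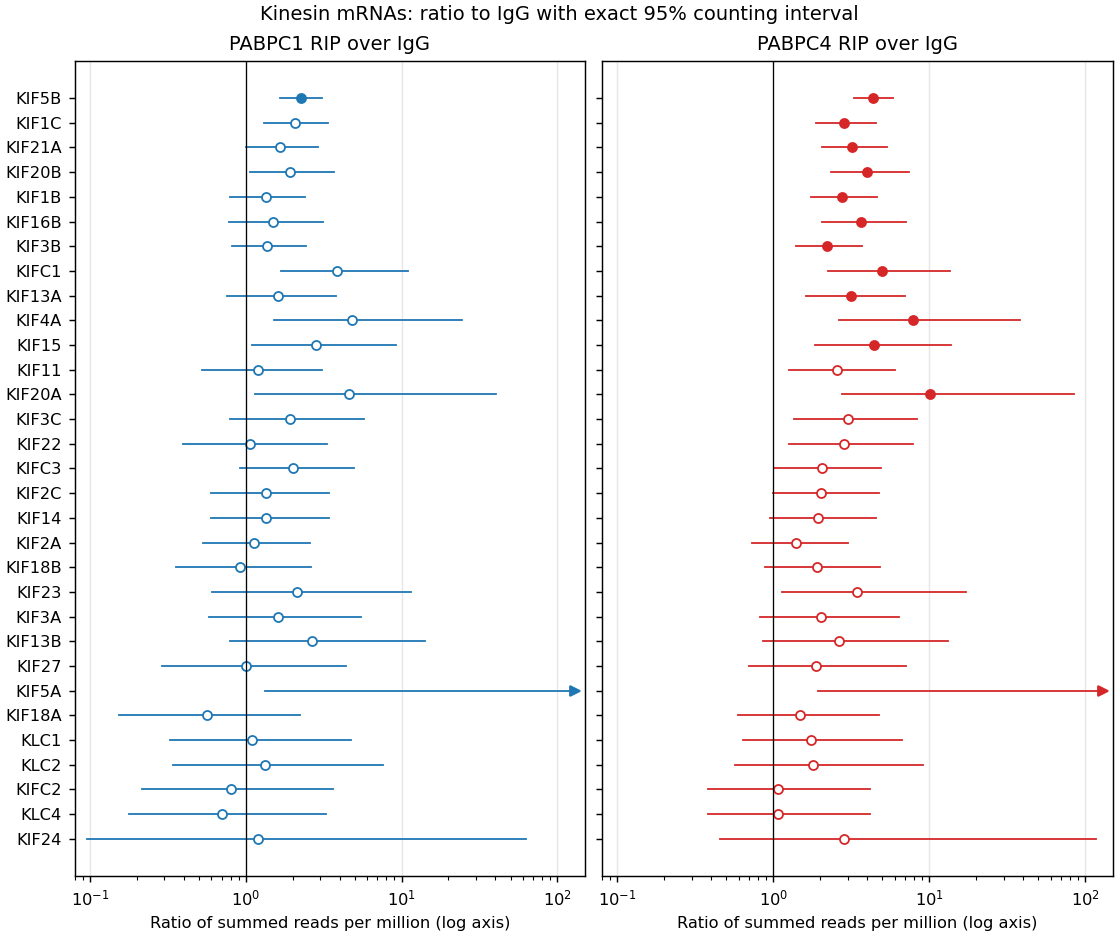
Ratio of summed reads, each scaled to RPM, RIP over IgG (log axis), with exact 95% counting intervals for the 31 kinesins with at least 20 PABPC4 and IgG reads, ordered by PABPC4 level; filled points were called in the authors' deposited tables. Intervals widen from KIF5B (3.31 to 5.89 with PABPC4) towards the bottom, and KIF5A has only a lower end, since it had 0 IgG reads.

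In the direct comparison of the RIPs, KIF5B was again the 1 member called. With limma on the recovered reads of all 6 libraries, scaled so that the median gene is near 0, KIF5B was log2 0.48 higher with PABPC4 than with PABPC1 (SE 0.11, 95% interval 0.26 to 0.69, adjusted p = 0.0037), both PABPC4 libraries above both PABPC1 libraries. In this fit 30 members were tested among 7977 genes, of which 2.09% were called higher and 2.28% lower, and 0 members were called lower. Of the 30, 20 had a difference above 0 and 10 below, and 7 had an unadjusted p under 0.05. The median difference was log2 0.17 over the 30 members and -0.03 over all genes tested. On library totals, which keep the larger nuclear-encoded share of the PABPC4 libraries, these medians were 0.65 and 0.45 and 10 members were called higher, while all-gene calls went from 167 higher and 182 lower to 1104 and 54. The KIF5B call was lost without PABPC1 library A or without PABPC1 library B, at ratios of 1.44 and 1.34, beside 1.39 with all libraries. Calls over all genes were also far fewer in both of these fits, which leave 1 PABPC1 library.

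Several kinesins had differences as large as that of KIF5B but with wider intervals. The highest was KIF22 at log2 0.89 (95% interval 0.13 to 1.65, limma adjusted p = 0.199). The lowest was KIF13B at log2 -0.58 (-1.35 to 0.18, limma adjusted p = 0.477). KIF16B was log2 0.79 higher with PABPC4 (95% interval 0.29 to 1.29, limma adjusted p = 0.0558), KIF20B 0.59 (0.14 to 1.03, adjusted p = 0.133), KIF1B 0.56 (0.13 to 0.98, adjusted p = 0.134) and KIF21A 0.48 (0.09 to 0.87, adjusted p = 0.169). KIFC1 and KIF1C lay near 0, at log2 -0.13 (95% interval -0.59 to 0.32) and -0.02 (-0.35 to 0.31). For KIF1C the interval leaves out the KIF5B value of 0.48, and whether the 2 genes differ was not tested.

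**Figure D5:**
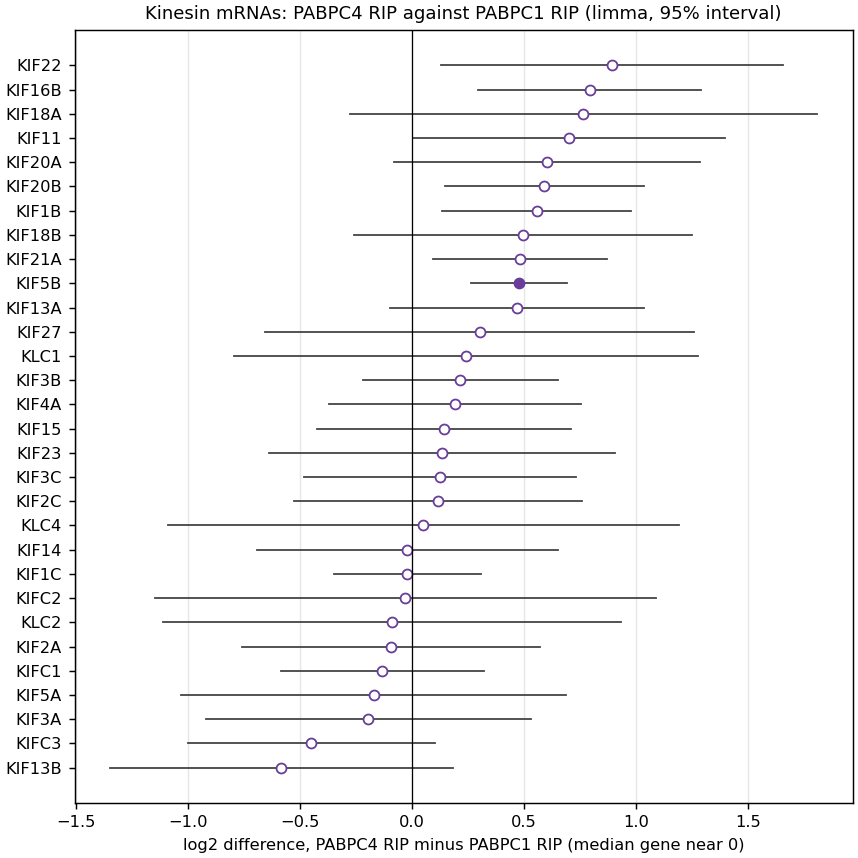
Log2 difference of PABPC4 RIP minus PABPC1 RIP from limma, with 95% intervals, for the 30 kinesins tested; the filled point is the 1 called at an adjusted p under 0.05. KIF5B (0.48, interval 0.26 to 0.69) has the shortest interval, and 20 of 30 points lie above 0.

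The spread between libraries of the same antibody was as follows for the members. Among members with at least 20 reads, the ratio of library A to library B in RPM ran from 0.640 to 2.33 for PABPC1 (20 members) and from 0.588 to 1.60 for PABPC4 (31 members). An exact binomial test of the split gave an unadjusted p under 0.05 for 0 and 3 of these members, and the smallest adjusted p was 0.400. At such read numbers this does not show that the libraries were alike. With IgG 2 members had at least 20 reads, and the libraries lay far apart for some others, as for KIF13A.

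Genes that work with kinesins were measured from lists chosen with earlier results of these data known. Of 20 adaptor and regulator genes, 19 had a p-value, and the authors' deposited tables called 1 higher with PABPC1 and 6 with PABPC4, none lower, beside 1.34% and 5.54% of all tested genes and 28.6% and 38.4% of those with at least 100 reads. KTN1, a receptor for kinesin-1 on the endoplasmic reticulum, was listed at 2.38-fold with PABPC1 (adjusted p = 8.5e-17) and 4.01-fold with PABPC4 (adjusted p = 1.7e-58) in the authors' deposited tables. SPAG9, a scaffold that binds kinesin-1, stood at 3.10-fold (adjusted p = 1.1e-07) and CENPE, a kinetochore kinesin that the symbol rule leaves out, at 5.33-fold (adjusted p = 3.9e-07) with PABPC4 in the authors' deposited table. Of 18 spindle partners of the kinesins, 1 was called higher with PABPC1 and 7 with PABPC4 in the authors' deposited tables, beside the same shares over all genes. TPX2, a spindle assembly factor that binds KIF11 and KIF15, was listed at 1.90-fold with PABPC1 (adjusted p = 0.0396) and 3.69-fold with PABPC4 (adjusted p = 9.0e-15) in the authors' deposited tables. INCENP, a scaffold of the chromosomal passenger complex, was at 4.10-fold with PABPC4 (adjusted p = 1.9e-10) in the authors' deposited table, and log2 1.12 higher with PABPC4 than with PABPC1 by limma (adjusted p = 1.0e-04).

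Genes of the opposing motor and of the track were measured as well. For dynein and dynactin, the minus-end-directed motor and its activator, the authors' deposited tables called 0 of 22 genes with PABPC1, beside 1.34% of all tested genes higher. They called 2 of 23 higher with PABPC4, DYNC1I2 at 4.93-fold (adjusted p = 7.1e-05) and DYNC1H1 at 2.22-fold (adjusted p = 0.0135), beside 5.54% of all tested genes. Limma called 1 of 18 of these genes lower with PABPC4 than with PABPC1, beside 2.28% of all genes tested. It was DYNLL2, at log2 -0.92 (adjusted p = 0.00266). Of the 16 tubulin genes, the authors' deposited tables called 0 in either comparison. Of all tested genes 1.34% were called higher with PABPC1 and 5.54% with PABPC4. The tubulin list summed to 158 and 297 RPM with IgG, 297 and 321 with PABPC1, and 388 and 393 with PABPC4, so it had fewer reads than the kinesins. Tubulin genes are near-identical copies, and how shared reads were assigned was not given in the sources used here.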

How the data were processed

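The members and gene lists were chosen with earlier results of these data known. Genes are named where called in a comparison, among the 10 members with most reads, or at the largest or smallest deposited fold among members with at least 20 RIP reads. Others, chosen after their values were seen, are named for their role.

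Per the submitters' processing notes, Bowtie2 2.4.1, STAR 2.7.10a and featureCounts 2.0.1 were used with GRCh38/hg38, the role of each unstated. Libraries used random primers, per the labels' protocols, and whether counting used strand was not given in the sources used here. The 2 deposited tables hold the authors' comparisons, with a fold (a linear ratio of RIP over IgG), a p-value and a Benjamini-Hochberg adjusted p-value per gene. The deposited p-values equal those of a Yates-corrected chi-square test of reads summed over libraries, and the deposited fold is the ratio of mean depth-scaled values with 0.005 RPKM added to IgG. This was worked out from the values, as no header states it.

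Whole reads were recovered from folds and p-values for 22600 of 22607 genes with a read as sums and for 15090 genes by library, 38 of the 46 members among them. IgG reads solved from each table alone were identical in 14883 of 14883 genes. On simulated tables of 15090 genes, 13554 sets of library reads were returned, 13554 of them equal to the simulated reads. Intervals and floors (3 reads over a group) cover counting error only. PABPC4 was compared with PABPC1 by limma 3.58.1 (voom, R 4.3.3) on 7977 genes with 10 reads or more in 2 or more libraries, with 3 groups, median-of-ratios scaling, 3 residual and 35.4 prior degrees of freedom and Benjamini-Hochberg adjustment. Calls use an adjusted p under 0.05. Alternatives were other scalings, read minimums and tests, and leaving out each library. Promoter windows and gene coordinates are from RefSeq (GRCh38.p14).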

Additional observations from a re-analysis of the deposited data

Results flagged for a closer look

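KIF5B was singled out because its level differed between the antibodies by a test of the difference itself: it was log2 0.48 higher with PABPC4 than with PABPC1 (limma, SE 0.11, adjusted p = 0.0037), both PABPC4 libraries lying above both PABPC1 libraries. The cells also differed in which protein was overexpressed, so effects of the antibody and of the overexpressed protein cannot be told apart.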

How the results depend on the processing

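No paired analysis was possible because the recovered libraries carry no replicate numbers. No called result reversed in the alternatives run, and members not called were not checked in this way. Some of these changed side with PABPC4 against IgG. KIF18A went from 1.60-fold in the authors' deposited table to log2 -0.47 in limma, and KIF2A from 1.40-fold to log2 -0.59. Of the 30 members tested in limma, 20 lay above 0 with PABPC4. For PABPC1 against IgG, 1 member was called, against 3 with Fisher's exact test or with at least 10 summed reads (KIF5B, KIF1C and KIFC1), 0 with median-of-ratios scaling, nuclear-encoded totals or limma, and 0 to 1 with a library left out (0 without IgG library A). For PABPC4 against IgG, 12 were called, against 14 with Fisher's test, 12 with at least 10 summed reads, 1 (KIF5B) with median-of-ratios scaling, nuclear-encoded totals or limma, and 2 to 12 with a library left out (2 without IgG library A, KIF5B and KIF21A; 6 without IgG library B). For PABPC4 against PABPC1, 1 was called, against 10 on library totals, 2 with at least 5 reads (KIF5B, and KIF12 lower), 2 with at least 20 reads or the 4 RIP libraries alone (KIF5B and KIF16B), 0 with limma trend, 1 with nuclear-encoded totals, and 0 to 3 with a library left out. That count was 0 without PABPC1 library A or B, 2 without either IgG library, and 3 without PABPC4 library B (KIF5B, KIF16B and KIF20B). The KIF5B call kept its side of the threshold in 9 of 9 alternatives for PABPC4 against IgG, 5 of 9 for PABPC1 against IgG and 9 of 12 for PABPC4 against PABPC1. The scalings treat the unequal nuclear-encoded shares of the libraries differently, and the cause of other shifts was not tested. Calls over all genes moved too. With PABPC4 against IgG they went from 1188 higher and 193 lower to 1561 and 168 with Fisher's test. They were 157 and 406 with median-of-ratios scaling, and 138 and 177 of 7977 genes with limma. With PABPC1 against IgG, 235 and 34 became 309 and 33, 37 and 51, and 28 and 39 in these settings. For PABPC4 against PABPC1, 167 and 182 became 9 and 21 with limma trend. Where 1 library of an antibody was left, limma assumes that it varies like the other groups. The IgG libraries, the shallowest, limit both comparisons against IgG, and members under 100 reads could hold differences not detectable at this depth.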

Other observations

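KIF12, a kinesin known from kidney and bile duct cilia, was singled out after its values were seen, as the member with a lower level with PABPC4 than with PABPC1 whose counting interval left out 1. It had 7 and 8 reads with PABPC1, 11 and 8 with PABPC4, and 0 and 0 with IgG. In RPM (reads scaled to the library total) these were 24.2 and 28.8 against 12.9 and 9.51, with no overlap. The ratio of PABPC4 to PABPC1 was 0.424 (exact 95% counting interval 0.204 to 0.897). Set against the floor of 3 IgG reads, the ratio of PABPC1 to IgG was 2.0, and its exact 95% lower limit from the counts was 1.44. The authors' deposited tables called neither RIP against IgG (adjusted p = 0.580 and 0.866), and KIF12 was below the read minimum of the main limma comparison.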
